A study of Rattus norvegicus with 18 samples.

Results

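The lowest of the 3 plantain flour doses given to diabetic rats was compared with water alone in diabetic rats, in kidney RNA. Members were the 6 libraries labelled LP or DM, out of 18 in the series, and all 29 listed features were read in them. LP rats were diabetic and received flour at 1 g per kg body weight, and DM rats were diabetic and received water, with 3 libraries in each group. Further diabetic groups received 2 g per kg (MP) or 4 g per kg (HP), and the healthy groups received a high flour dose (NH) or water (NC). All rats were male and 23 weeks old, and every library was made from whole kidney. For the strain, the induction of diabetes and the length of feeding, nothing is given in the sources used here. The labels do not say that replicates were separate animals, so p-values measure only the spread between these samples. Whole kidney mixes many cell types, and fewer cells of a type cannot be told apart from less RNA per cell.

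The proximal tubule is the segment of the nephron that reclaims most of the filtered glucose, phosphate and amino acids, and it draws its energy largely from mitochondrial respiration. Its cells also make glucose, take apart amino acids, and are the main source of plasma glutathione peroxidase. The mitochondrial genome encodes a few core subunits of the respiratory complexes and ATP synthase, and nuclear genes encode the rest. Of 11 proximal tubule markers, 7 were among the listed features, including Slc34a1, Miox, Pck1, Slc3a1, Cyp4a2 and Hao2. None of 14 markers of other kidney or blood cell types was among the listed features, so the presence of those cells was not tested.

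The promoters of 4 nuclear genes whose counts moved most clearly are shown here, each from 250 bases before the RefSeq transcription start to 50 after it, 300 bases in all, on the gene's own strand in build GRCr8. Pck1 lies at chr3:182348322-182348621 on the plus strand and Gpx3 at chr10:39529085-39529384 on the plus strand. Cyp2c23 lies at chr1:252863018-252863317 on the minus strand and Aadat at chr16:34555131-34555430 on the minus strand. Capitals mark ACGTCA, the core of a cyclic AMP response element, and TTTAAA.
Pck1: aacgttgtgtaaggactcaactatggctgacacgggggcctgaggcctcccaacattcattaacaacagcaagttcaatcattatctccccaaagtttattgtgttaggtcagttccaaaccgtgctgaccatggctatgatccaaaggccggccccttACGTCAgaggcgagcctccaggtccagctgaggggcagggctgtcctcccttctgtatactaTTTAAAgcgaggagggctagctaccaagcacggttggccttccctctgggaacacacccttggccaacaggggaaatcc
Gpx3: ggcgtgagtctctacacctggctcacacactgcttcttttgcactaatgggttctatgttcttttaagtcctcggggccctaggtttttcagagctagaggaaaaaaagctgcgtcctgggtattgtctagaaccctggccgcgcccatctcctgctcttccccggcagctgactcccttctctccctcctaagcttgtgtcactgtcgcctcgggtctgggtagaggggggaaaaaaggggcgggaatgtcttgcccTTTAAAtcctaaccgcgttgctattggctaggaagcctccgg
Cyp2c23: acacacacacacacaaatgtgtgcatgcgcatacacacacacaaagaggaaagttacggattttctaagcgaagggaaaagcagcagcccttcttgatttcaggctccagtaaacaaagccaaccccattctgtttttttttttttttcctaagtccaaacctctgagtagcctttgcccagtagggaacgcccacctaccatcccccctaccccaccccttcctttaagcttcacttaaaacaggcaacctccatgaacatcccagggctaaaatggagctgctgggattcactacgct
Aadat: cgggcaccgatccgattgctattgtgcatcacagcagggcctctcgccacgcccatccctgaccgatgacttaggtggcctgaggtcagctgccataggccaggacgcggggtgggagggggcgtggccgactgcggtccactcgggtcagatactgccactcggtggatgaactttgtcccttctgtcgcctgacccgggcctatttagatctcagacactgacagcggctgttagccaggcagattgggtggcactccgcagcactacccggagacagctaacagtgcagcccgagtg
Windows were found for 13 of the 16 nuclear genes, with 14 windows because Glul has a pair. Motifs were searched on both strands, and the shares are of 33469 rat promoters of the same length. ACGTCA occurred in Pck1, 91 bases before its start, and in Atp5f1b, against 7.94% of promoters. TTTAAA was added to the search after the sequences had been seen. It occurred in Pck1 (29 bases before the start), Gpx3 (8 bases after it), Cyp4a2 and Hao2, against 13.6% of promoters. TATAAA occurred in Gclc, Hao2, Miox, Slc34a1 and Slc3a1, against 14.2%. TGACNNNGC, an antioxidant response element core, occurred in Slc3a1 and Atp5f1b, against 12.1%. The DR1 and HNF1 motifs, direct and inverted repeats bound by nuclear receptors and by hepatocyte nuclear factor, occurred in none of the 13 genes and in 0.0538% (DR1) and 0.00299% (HNF1) of promoters. Of the genes printed above, neither Cyp2c23 nor Aadat held any of these letters.

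The listed features were 12 mitochondrial genes, 16 nuclear genes and 1 unnamed feature, with between 20735 and 1432699 counts in the LP and DM libraries. Listed totals ran between 4443933 and 5134893 in LP and between 4440262 and 4976154 in DM, and since only 29 features are listed the full depth of a library is unknown. Among the 28 named genes, those on the mitochondrial genome took 77.3, 78.7 and 77.1% of all counts in LP, against 83.0, 82.0 and 83.3% in DM. Because that balance differed, each class was ranked and scaled on its own. A class-scaled count is a count divided by a median-of-ratios factor that was computed over the genes of one class. On the log2 scale the LP factors exceeded the DM factors by 0.24 for nuclear genes, and the difference was -0.01 for mitochondrial genes. A class-scaled change is therefore a change relative to the other genes of the class. Replicates of both groups differed by more than counting noise.

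The order of the nuclear genes differed more between LP and DM than between replicates, and the order of the mitochondrial genes was nearly kept. Of the 120 nuclear gene pairs, between 23 and 27 (median 24) stood in opposite order in an LP and a DM library. Between 3 and 6 did so within LP and between 2 and 7 within DM. Of the 66 mitochondrial pairs, 1 or 2 stood in opposite order between an LP and a DM library. Between 1 and 3 did so within LP and 0 within DM. Such numbers also depend on how far apart the counts of the genes lie, so the classes cannot be compared directly. Pck1 ranked 2 among nuclear genes in every LP library and 4 in every DM library. Cyp2c23 ranked 10, 8 and 9 in LP against 16, 16 and 15 in DM. Aadat moved the other way, to ranks 16, 15 and 15 in LP against 8, 9 and 8 in DM. Gpx3, the gene with the most nuclear counts, and Eef1a1, at rank 7, kept their places in all 6 libraries. Slc34a1 stood at 8, 10 and 8 in LP against 12, 12 and 13 in DM, although its share of nuclear counts was 4.15% ± 0.276 in LP and 4.18% ± 0.155 in DM (SD, n = 3 each).

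**Figure D1:**
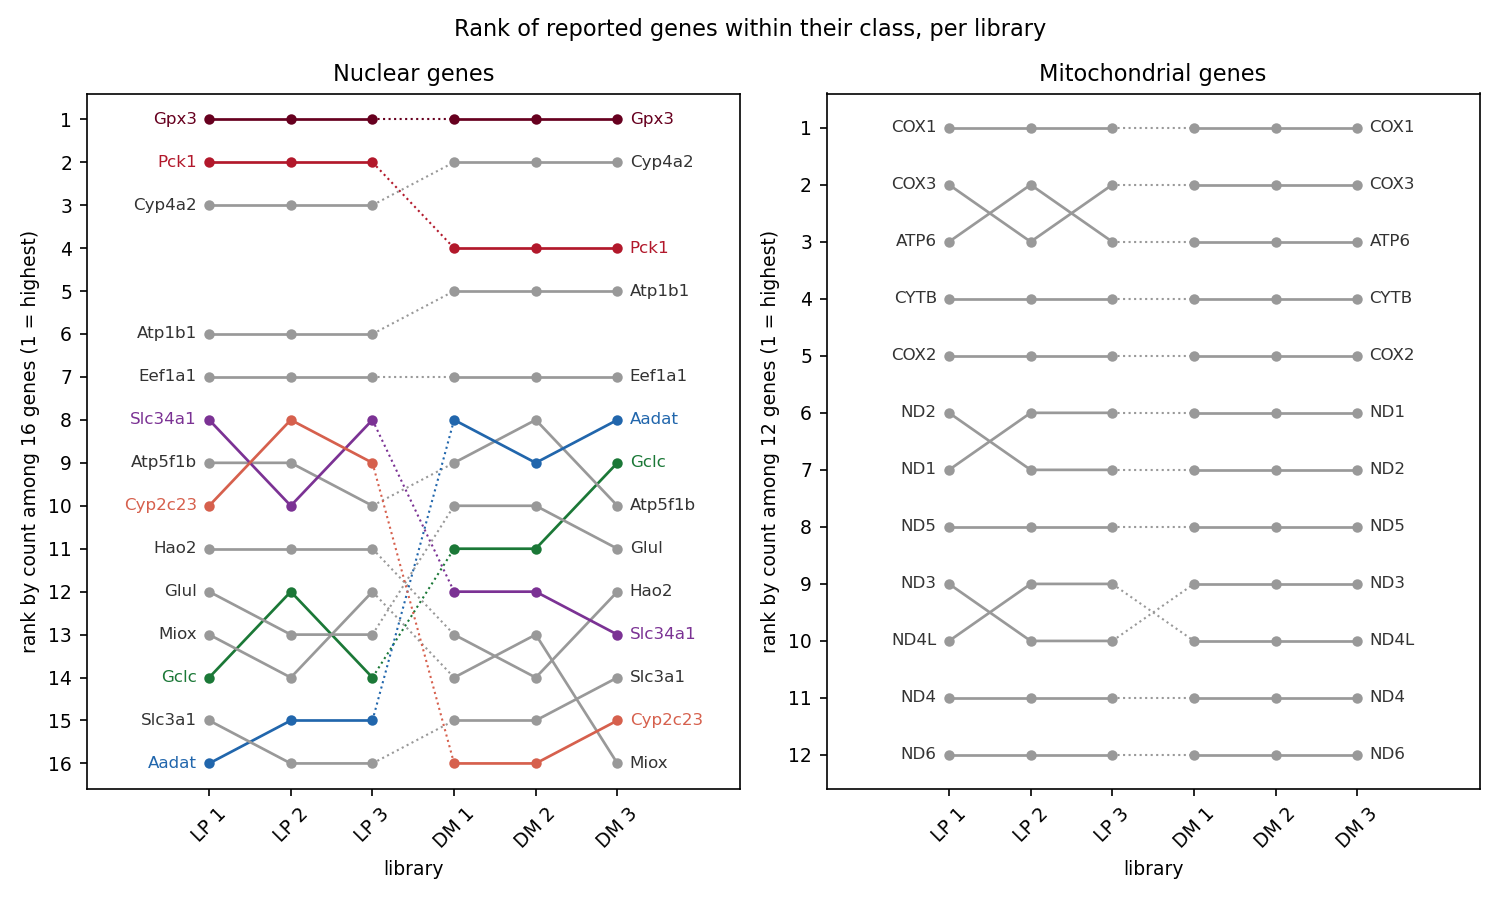
Rank by count among the 16 nuclear genes (left, 14 drawn) and the 12 mitochondrial genes (right) in each LP and DM library, with rank 1 the highest; each line is 1 gene and its dotted piece joins the groups. Pck1, Cyp2c23 and Slc34a1 stand higher in every LP library, Aadat and Gclc stand lower in every LP library, and COX1, CYTB, COX2, ND5, ND4 and ND6 keep 1 rank throughout.

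With each class scaled on its own, 15 of the 29 features (51.7%) passed an adjusted p of 0.05 in edgeR's quasi-likelihood test, 6 higher (20.7%) and 9 lower (31.0%) in LP than in DM. Class-scaled counts did not overlap between LP and DM libraries for 21 of the 29 (72.4%). The higher features included Pck1, Gpx3, Cyp2c23, ND5 and ND4L. The lower ones included Aadat, Gclc, Slc3a1, Glul, Miox, Atp1b1, Eef1a1 and Atp5f1b. The median log2 fold change was -0.08 over all features. Scaling moved the split of calls. Scaling all features together by TMM gave 6 higher and 2 lower (median 0.10), joint median-of-ratios gave 11 and 1 (0.24), and the geometric mean of the nuclear genes gave 5 and 10 (-0.15). Unscaled counts gave 4 higher and 3 lower (median 0.02), summed counts of each class 5 and 11, and a fit of LP and DM alone 9 and 5. Gpx3, Pck1, Cyp2c23 and Aadat were among the genes called in 1 direction under class scaling and under all 4 scalings over all features.

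**Figure D2:**
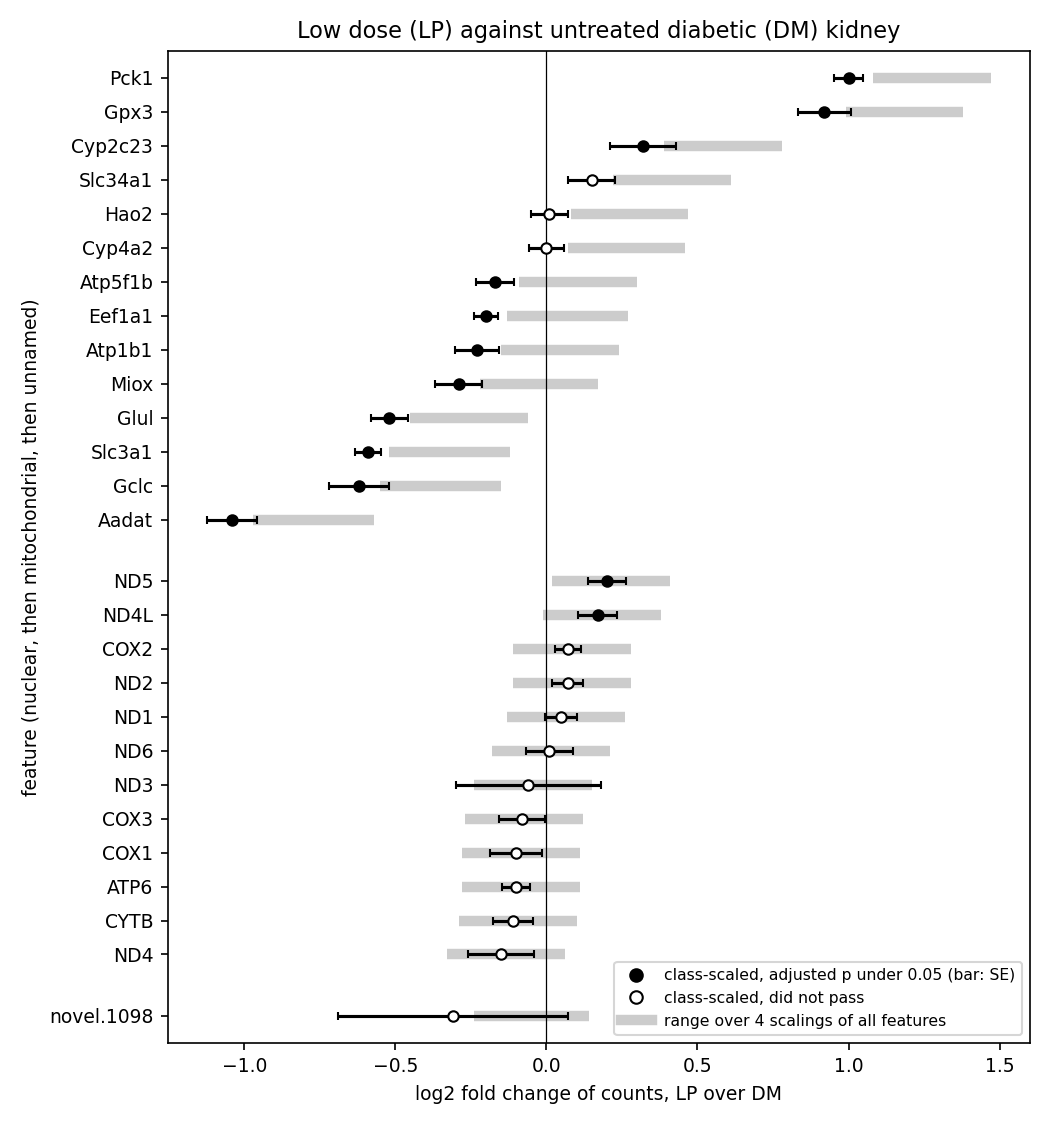
Log2 fold change of counts, LP over DM, for each reported feature, with class-scaled estimates as circles (filled where the adjusted p was under 0.05), standard errors as black bars, and the range over 4 scalings of all features in grey. Among the nuclear genes drawn, the whole grey range lies above 0 for Gpx3, Pck1, Cyp2c23, Slc34a1, Hao2 and Cyp4a2. It lies below 0 for Aadat, Gclc, Slc3a1 and Glul, and crosses 0 for Miox, Atp1b1, Eef1a1 and Atp5f1b.

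In glucose synthesis, Pck1 rose and had the largest fold change of the 29 features upward under each of the 5 scalings. Pck1, the cytosolic phosphoenolpyruvate carboxykinase that commits the tubule to glucose synthesis, had 152522, 160428 and 170362 counts in LP libraries, against 69987, 66611 and 66821 counts in DM libraries. The lowest LP count lay far above the highest DM count. The class-scaled log2 fold change was 1.00 (SE 0.047, edgeR quasi-likelihood adjusted p = 5.39e-11), and the fold lay between 2.01 and 2.77 over the 5 scalings. Pck1 made up 15.0% ± 0.199 of nuclear counts in LP and 8.33% ± 0.0782 in DM (SD, n = 3 each). Its class-scaled counts were also the least variable of the nuclear genes between replicates, with a coefficient of variation of 0.691% in LP and 0.393% in DM. The factor is a median over the nuclear genes, so the scaling itself lowers the spread of genes near that median. How far this holds for Pck1 was not tested, and its small spread is not read as tight expression. It is deposited at chromosome 3, 171213936 to 171219871, plus strand, in a build that is not given in the sources used here.

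The glutathione genes split. Gpx3, the glutathione peroxidase that the kidney secretes into plasma, had 205933, 237596 and 243046 counts in LP, against 104176, 98565 and 102914 counts in DM. The groups did not overlap. The class-scaled log2 fold change was 0.92 (SE 0.088, edgeR adjusted p = 1.83e-07), and folds ran between 1.90 and 2.61 over the scalings. Per kilobase of its deposited length, Gpx3 averaged 155898 ± 13700 counts in LP and 69404 ± 2010 counts in DM (SD, n = 3 each). On that scale it stood above 5 mitochondrial genes (ND5, ND4L, ND3, ND4 and ND6) in every LP library and above 3 (ND5, ND4 and ND6) in every DM library. Gclc, which catalyses the first and limiting step of glutathione synthesis, had 25956, 31119 and 31548 counts in LP, against 38880, 36184 and 39581 counts in DM. It was lower in every LP library. Its class-scaled log2 fold change was -0.62 (SE 0.10, edgeR adjusted p = 0.00011), and its direction was kept in the other scalings, although it missed the threshold under joint median-of-ratios (adjusted p = 0.0773). The count ratio of Gpx3 to Gclc, which needs no scaling, was 7.93, 7.64 and 7.70 in LP, against 2.68, 2.72 and 2.60 in DM. The difference was 2.91-fold (two-sided exact permutation p = 0.1, below which 3 against 3 libraries cannot go, and adjusted p = 0.157 over 11 ratios). This ratio combines the 2 changes above and is not a separate result. Over all 120 nuclear pairs, 103 ratios (85.8%) did not overlap.

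Of the cytochrome P450 genes, Cyp2c23 rose and Cyp4a2 did not pass with class scaling. Cyp2c23, the main renal arachidonic acid epoxygenase of the rat, had 38352, 46299 and 45586 counts in LP, against 29984, 27863 and 30327 counts in DM. No LP library overlapped a DM library. The class-scaled log2 fold change was 0.32 (SE 0.11, edgeR adjusted p = 0.028), with folds between 1.25 and 1.72 over the 5 scalings. With summed counts of each class as the scale it was 0.16 and did not pass (adjusted p = 0.156). The class-scaled call was also lost without DM replicate 1 (adjusted p = 0.0688), DM replicate 2 (0.1) or LP replicate 2 (0.0643). Cyp4a2, which makes 20-hydroxyeicosatetraenoic acid from the same substrate, had class-scaled counts of 80332 ± 1510 in LP and 80507 ± 2160 in DM (SD, n = 3 each; adjusted p = 0.958). Cyp4a2 was higher under joint median-of-ratios (0.46, adjusted p = 0.00104) and in the fit of LP and DM alone (0.13, 0.017), and lower with class sums (-0.16, 0.0117). The count ratio of Cyp2c23 to Cyp4a2 was 0.399, 0.453 and 0.433 in LP, against 0.335, 0.343 and 0.351 in DM. The two-sided exact permutation p was 0.1 (adjusted p = 0.157), and over all 120 nuclear pairs 103 ratios (85.8%) did not overlap. The P450 family has close relatives, and reads shared between them could not be checked here.

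Of the listed amino acid enzymes, Aadat was lower and passed under all 5 scalings, while Glul was lower under all 5 but passed under 2. Aadat, a mitochondrial aminotransferase that acts on kynurenine and 2-aminoadipate, had 22438, 24763 and 25640 counts in LP, against 43151, 39533 and 43655 counts in DM. The highest LP count was well under the lowest DM count. The class-scaled log2 fold change was -1.04 (SE 0.083, edgeR adjusted p = 2.15e-08), and the count was between 1.49 and 2.05 times lower over the scalings. Against each of the other 15 nuclear genes in turn, Aadat's count ratio was lower in all LP libraries than in all DM libraries; over all 120 nuclear pairs, 103 (85.8%) did not overlap. Glul, glutamine synthetase, had 31652, 30053 and 31685 counts in LP, against 38970, 38528 and 35762 counts in DM. These groups did not overlap either. Its class-scaled log2 fold change was -0.52 (SE 0.062, edgeR adjusted p = 2.86e-06), but it did not pass under TMM (-0.20, adjusted p = 0.507), joint median-of-ratios (-0.06, 0.706) or unscaled counts (-0.28, 0.117). The count ratio of Aadat to Glul was 0.709, 0.824 and 0.809 in LP, against 1.11, 1.03 and 1.22 in DM (two-sided exact permutation p = 0.1, adjusted p = 0.157).

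Of the listed transporters, Slc3a1 fell and Slc34a1 did not pass with class scaling. Slc3a1, the heavy subunit of the apical carrier for cystine and dibasic amino acids, had 22990, 23698 and 25405 counts in LP, against 31394, 29292 and 30813 counts in DM. Every LP library was lower. The class-scaled log2 fold change was -0.59 (SE 0.043, edgeR adjusted p = 9.55e-09), and its adjusted p was 0.188 under TMM and 0.267 under joint median-of-ratios. Slc34a1, the sodium-phosphate cotransporter of the proximal tubule, had 44402, 41985 and 47069 counts in LP, against 35371, 34168 and 32476 counts in DM. These counts did not overlap, while the class-scaled ones were closer. Its class-scaled log2 fold change of 0.15 (SE 0.077) did not pass (edgeR adjusted p = 0.137). Slc34a1 did pass as higher under joint median-of-ratios (0.61, adjusted p = 0.0024), nuclear scaling (0.22, 0.0463), class geometric means (0.22, 0.0415) and the fit of LP and DM alone (0.28, 0.00168), but was -0.01 with class sums. The count ratio of Slc34a1 to Slc3a1 was 1.93, 1.77 and 1.85 in LP, against 1.13, 1.17 and 1.05 in DM, a 1.66-fold difference. The two-sided exact permutation p was 0.1 (adjusted p = 0.157), and over all 120 nuclear pairs 103 ratios (85.8%) did not overlap.

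Changes in the remaining nuclear genes were smaller and their direction depended on the scaling. Atp1b1, the beta subunit of the sodium pump, took 5.76, 6.18 and 5.87% of nuclear counts in LP, against 7.77, 7.72 and 7.72% in DM. Atp1b1 (log2 -0.23, adjusted p = 0.0165), Eef1a1, a translation elongation factor (-0.20, adjusted p = 0.000713), and Atp5f1b, the catalytic beta subunit of ATP synthase (-0.17, adjusted p = 0.0353), were lower by class scaling in edgeR. All 3 had positive log2 fold changes under TMM, joint median-of-ratios and unscaled counts. The call for Atp1b1 was lost without LP replicate 1 (adjusted p = 0.0909) or LP replicate 3 (0.0778). The call for Atp5f1b was lost on leaving out DM replicate 1 (0.0688), DM replicate 2 (0.139), LP replicate 1 (0.104), LP replicate 2 (0.177) or LP replicate 3 (0.158). The count ratio of Atp1b1 to Atp5f1b overlapped, at 1.41, 1.59 and 1.49 in LP against 1.56, 1.46 and 1.66 in DM (two-sided exact permutation p = 0.5, adjusted p = 0.688).

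Among the oxidases, Miox, which opens myo-inositol in the tubule, was lower by class scaling (log2 -0.29, SE 0.077, edgeR adjusted p = 0.00513), but was 0.03 under TMM and 0.17 under joint median-of-ratios. Its call was lost without LP replicate 2 (adjusted p = 0.0643). Hao2, a peroxisomal hydroxyacid oxidase, had class-scaled counts of 30124 ± 704 in LP and 30020 ± 857 in DM (SD, n = 3 each; adjusted p = 0.958). Hao2 was called higher under joint median-of-ratios (0.47, adjusted p = 7.88e-05) and in the fit of LP and DM alone (0.14, 0.0167), and lower with class sums (-0.15, 0.011). The count ratio of Hao2 to Miox was 1.17, 1.40 and 1.24 in LP, against 1.02, 0.962 and 1.10 in DM (two-sided exact permutation p = 0.1, adjusted p = 0.157). It did not overlap, which held for 103 of all 120 nuclear pairs (85.8%).

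With class scaling, 2 of the 12 mitochondrial genes passed, against 13 of the 16 nuclear genes. Of the 66 count ratios between a pair of them, 27 (40.9%) did not overlap between LP and DM libraries. ND5, a proton-pumping subunit of complex I, had 102638, 117719 and 110656 counts in LP, against 101861, 87475 and 101045 counts in DM. The lowest LP value lay only just above the highest DM value. Scaled to its class, ND5 was 157686, 161909 and 161142 in LP, against 139762, 134525 and 143697 in DM, a log2 fold change of 0.20 (SE 0.062, edgeR adjusted p = 0.0142). It did not pass under nuclear scaling (0.02, adjusted p = 0.953) or unscaled (0.19, 0.591). ND5 was higher in LP against 8 of the other 11 mitochondrial genes and lower against none of them, with the remaining 3 ratios overlapping. ND4L, a small membrane subunit of complex I, had a class-scaled log2 fold change of 0.17 (SE 0.064, edgeR adjusted p = 0.0353). That call was lost without DM replicate 1 (0.0559), DM replicate 2 (0.139), LP replicate 1 (0.0643) or LP replicate 2 (0.175), and under nuclear scaling the value was -0.01.

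Grouped by complex, the 7 complex I genes took 19.4, 19.2 and 18.4% of mitochondrial counts in LP, against 17.4, 17.2 and 17.6% in DM, and 2 of the 7 passed the class-scaled test. The 3 cytochrome oxidase genes of complex IV took 56.9% ± 0.607 in LP and 57.5% ± 0.115 in DM, with log2 fold changes of -0.10 for COX1, -0.08 for COX3 and 0.07 for COX2. CYTB of complex III took 10.7% ± 0.224 in LP and 11.2% ± 0.266 in DM. ATP6 of ATP synthase took 13.4% ± 0.504 in LP and 13.9% ± 0.468 in DM (SD, n = 3 each). None of these 5 genes passed with class scaling. COX1 (-0.28, adjusted p = 0.023), COX3 (-0.27, 0.0425) and CYTB (-0.29, 0.0463) passed as lower under nuclear scaling, and COX2 (0.28, 0.0335) as higher under joint median-of-ratios. With class scaling ATP6 came nearest, at a log2 fold change of -0.10 (SE 0.046, edgeR adjusted p = 0.0789), and passed without LP replicate 2 (-0.14, adjusted p = 0.0277). Both tested count ratios between these complexes overlapped between LP and DM libraries. CYTB to COX1 averaged 0.315 ± 0.00188 in LP and 0.317 ± 0.00656 in DM, and ATP6 to COX3 averaged 0.948 ± 0.0761 in LP and 0.958 ± 0.0351 in DM (SD, n = 3 each). COX2 had higher count ratios in LP without overlap against 5 of the other 11 mitochondrial genes, and lower ones against 2. Over all 66 mitochondrial pairs, 27 ratios (40.9%) did not overlap, and COX2 itself did not pass with class scaling (edgeR adjusted p = 0.171).

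ND4 and the unnamed feature are uncertain. The unnamed feature lies on chromosome 20 at 19483978 to 19485846 as deposited and is described as similar to chain 4 of NADH-ubiquinone oxidoreductase, so reads of ND4 could be divided between both. It had 20735, 51080 and 47961 counts in LP, against 53129, 42566 and 28685 counts in DM. The groups overlapped widely (log2 fold change -0.31, SE 0.38, edgeR adjusted p = 0.494). ND4 itself had a class-scaled log2 fold change of -0.15 (SE 0.11, edgeR adjusted p = 0.257). ND3 was the most variable mitochondrial gene between LP libraries, with a coefficient of variation of 15.8%. ND4L and ND4 overlap by 7 bases and ATP6 and COX3 by 1 base, and ND6 overlaps the end of ND5 on the opposite strand, so reads at these edges could be assigned to either gene.

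The lower mitochondrial share in LP came with higher counts of few nuclear genes. The ratio of all mitochondrial to all nuclear counts was 3.41, 3.69 and 3.36 in LP, against 4.88, 4.55 and 5.01 in DM. The libraries did not overlap (log2 difference -0.46, SE 0.059, two-sided exact permutation p = 0.1, the smallest possible). In counts, the 16 nuclear genes summed to 1073446 ± 66604 in LP and 813554 ± 22778 in DM, a difference of 259892. The mean count of Gpx3 alone differed by 126973 and that of Pck1 by 93298, both higher in LP. With Gpx3 and Pck1 left out, the ratio was 5.31, 5.84 and 5.29 in LP, against 6.15, 5.74 and 6.33 in DM, and the groups overlapped (log2 difference -0.15, SE 0.063, two-sided exact permutation p = 0.2). Both genes were known to have risen, so the smaller difference without them is a description. Mitochondrial counts summed to 3746311 ± 296617 in LP and 3914815 ± 268791 in DM (SD, n = 3 each).

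**Figure D3:**
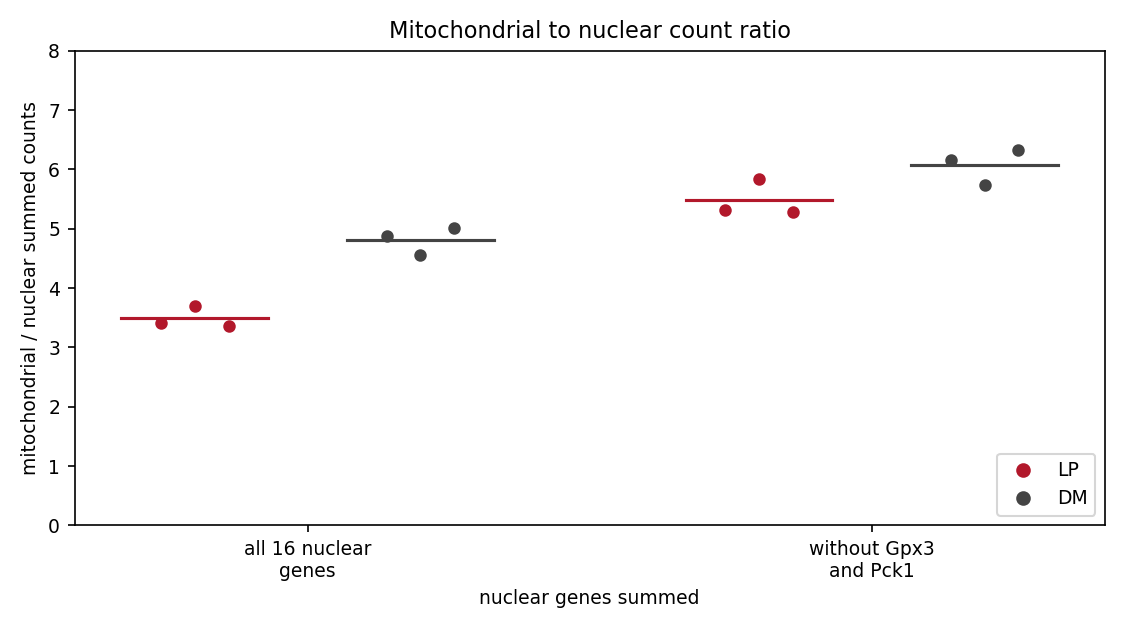
Mitochondrial counts divided by nuclear counts in each LP and DM library (points, with the group mean as a line), over all 16 nuclear genes and without Gpx3 and Pck1. The groups are apart with all genes (3.49 ± 0.179 in LP and 4.81 ± 0.236 in DM) and overlap once both genes are left out. Both genes were known to be higher in LP in these libraries, so the ratio without them had to come closer and is a description only.

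The low dose was then set beside the other doses. The comparisons of LP with DM, MP and HP share the LP libraries. Gpx3 and Pck1 together took 20.9% ± 0.0865 of nuclear counts in DM (SD, n = 3 in each group here). Their share was 36.3% ± 0.511 in LP, then 37.5% ± 0.668 in MP, then 21.2% ± 0.622 in HP. Aadat, Gclc, Slc3a1 and Glul together took 18.3% ± 0.205 of nuclear counts in DM. Their share was 10.2% ± 0.107 in LP, then 11.7% ± 0.244 in MP, then 21.6% ± 1.23 in HP. The shares at the highest dose thus lay near those of untreated diabetic kidney for the first set and above them for the second. Because these shares are of a common total, a larger share for some genes lowers the shares of the others. Mean counts in DM and MP were 38215 and 37827 for Gclc, and 30500 and 28415 for Slc3a1. For Aadat they were 42113 and 34993, and for Glul 37753 and 32275.

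**Figure D4:**
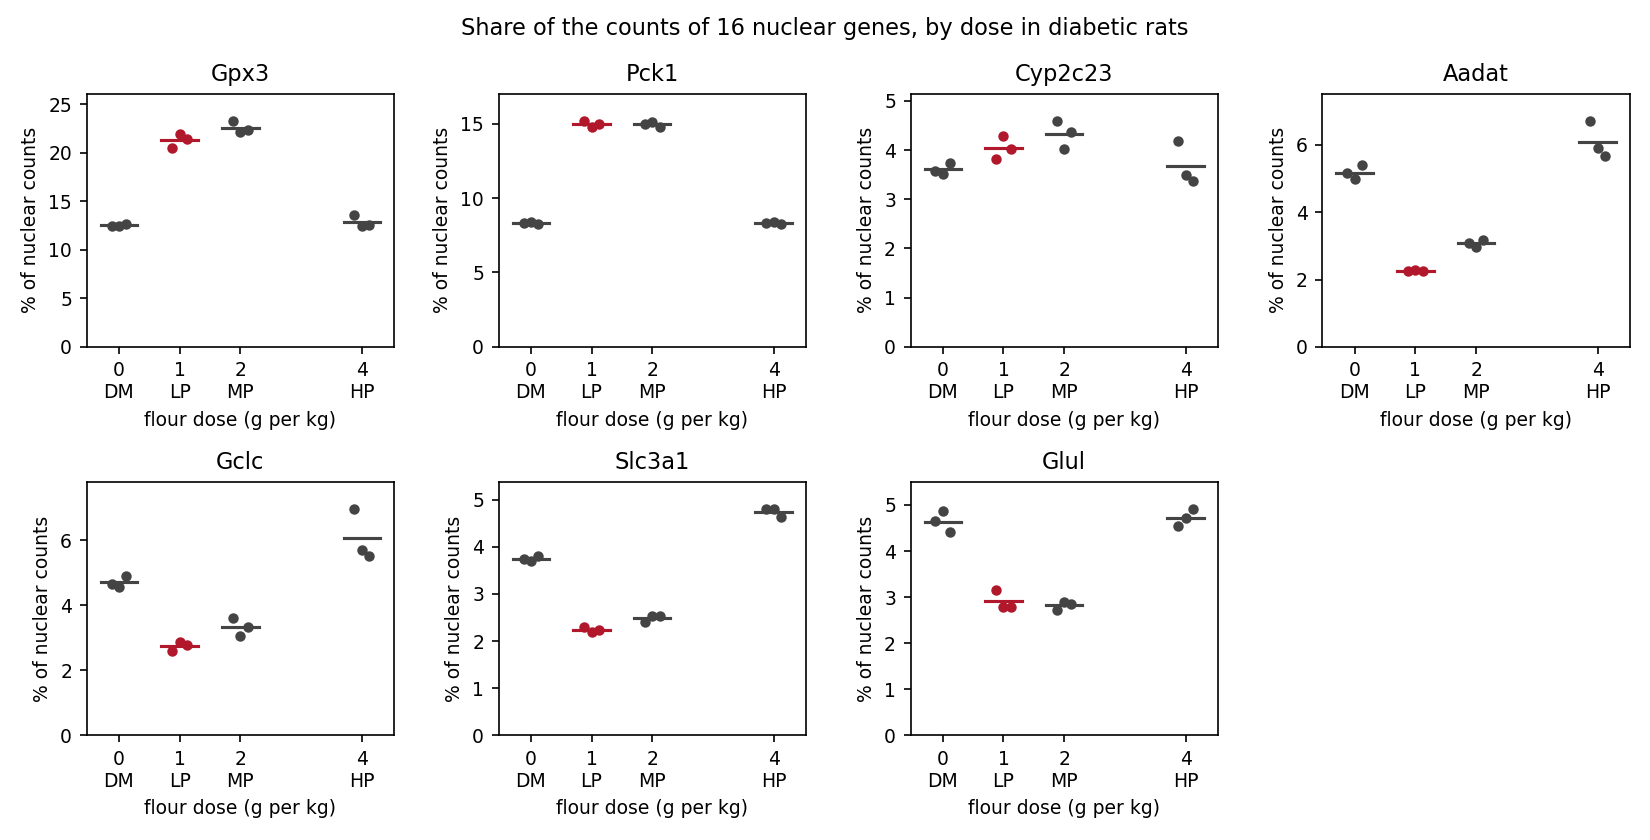
Share of the counts of the 16 nuclear genes taken by each of 7 genes against flour dose in g per kg in diabetic rats; points are libraries (LP in red), lines are means of 3, and all axes start at 0. The shares of Gpx3 and Pck1 are high in LP and MP and low in DM and HP, and those of Aadat, Gclc, Slc3a1 and Glul show the reverse. Shares of a common total are not independent of each other.

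Against MP, LP differed in few features. With class scaling, 3 of 29 (10.3%) passed in edgeR, none higher (0.0%) and 3 lower in LP, and 9 had an unadjusted p under 0.05. Aadat had class-scaled counts of 18953, 19700 and 19130 in LP, against 29875, 26053 and 29636 in MP (log2 fold change -0.57, SE 0.082, edgeR adjusted p = 0.000167). Slc3a1 had 19419, 18853 and 18955 in LP, against 23233, 22313 and 23649 in MP (-0.27, SE 0.043, edgeR adjusted p = 0.000204). Gclc differed by -0.40 (SE 0.10, edgeR adjusted p = 0.0158), a call lost without LP replicate 1 (0.069) or MP replicate 1 (0.0754). The Aadat call was lost under TMM (-0.10, adjusted p = 0.486) and joint median-of-ratios (-0.14, 0.157), and Gclc and Slc3a1 turned positive under both. TMM gave 3 calls, all higher in LP, and nuclear scaling gave 3 higher and 4 lower. Gpx3 (log2 -0.20, SE 0.087, edgeR adjusted p = 0.121) and Pck1 (-0.12, SE 0.047, 0.12) did not pass, which does not show that the doses act alike. Between 5 and 13 nuclear gene pairs stood in opposite order in an LP and an MP library.

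Against HP, LP was again high in Pck1 and Gpx3 and low in Aadat and Gclc. With class scaling, 12 of 29 features (41.4%) passed in edgeR, 5 higher (17.2%) and 7 lower (24.1%) in LP. Pck1 had class-scaled counts of 128830, 127628 and 127107 in LP, against 64910, 63117 and 60701 in HP (log2 fold change 1.02, SE 0.047, edgeR adjusted p = 3.08e-11). Gpx3 was higher as well (0.89, edgeR adjusted p = 2.71e-07). Aadat (-1.26, 1.57e-09), Slc3a1 (-0.91, 3.08e-11) and Gclc (-0.97, 7.37e-07) were lower in LP in the same test. The Slc3a1 value shrank to -0.22 under TMM (adjusted p = 0.215) and -0.19 under joint median-of-ratios (0.0888) and did not pass. Cyp2c23 passed at 0.30 (adjusted p = 0.0422), but not without LP replicate 2 (0.0903), HP replicate 2 (0.134) or HP replicate 3 (0.151), nor with class sums (0.13, adjusted p = 0.241) or in the fit of LP and HP alone (0.0702). Gpx3, Pck1, Cyp2c23, Aadat and Gclc were among the genes called in 1 direction under all 5 scalings. The share of calls in each direction moved with the scaling, with 12 higher and 2 lower under TMM and 7 higher and 19 lower under nuclear scaling. COX2, a core subunit of cytochrome oxidase, was the 1 mitochondrial gene called (0.27, edgeR adjusted p = 7.11e-05), and it was -0.45 under nuclear scaling and -0.33 in unscaled counts. The unnamed feature also passed (-1.19, adjusted p = 0.0197), but not without LP replicate 1 (0.0922) or HP replicate 1 (0.115). It was -0.37 with the mitochondrial scaling (adjusted p = 0.343), -0.43 with TMM (0.215) and -0.42 with joint median-of-ratios (0.315), and did not pass in the fit of LP and HP alone (0.0702). Between 27 and 36 nuclear gene pairs stood in opposite order in an LP and an HP library.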

How the data were processed

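Per the labels' protocols, each kidney library used 1 µg of RNA and the NEBNext Ultra kit, which does not mark strand. Bowtie 0.12.2, CASAVA 1.7 and the mouse build mm8 appear without roles in the submitters' processing notes, and no rat build, annotation or read counter is given in the sources used here. The deposited table is titled FPKM, but all 522 of its values were whole and were read as counts, which is an inference from the values. With 29 features listed, depth is unknown. At these counts the counting error was below the median replicate spread, a coefficient of variation of 2.47% in LP and 2.88% in DM for nuclear genes. This did not hold for each gene, since the spread of Pck1 in DM (0.393%) was about as small as counting error.

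Differences were tested with edgeR 4.0.16 in R 4.3.3 (quasi-likelihood F test, two-sided, 1 fit of all 18 libraries, no dispersion trend, no filter). Offsets came from median-of-ratios factors of mitochondrial and nuclear genes separately; the unnamed feature took the nuclear factor. P-values were adjusted by Benjamini-Hochberg over 29 features, with a threshold of 0.05, and the SE is the log2 fold change divided by the square root of F. Ratios were compared by exact permutation in SciPy 1.17.1. The edgeR step was also run on counts simulated from its own fitted means, dispersions and class factors. Such counts cannot test the choice of scaling. Alternatives were 4 scalings over all features (TMM, joint median-of-ratios, nuclear geometric mean, none), class geometric means or sums, DESeq2 1.42.0, limma 3.58.1 on log2(scaled count + 1), the compared groups alone, a low-count filter (which kept all 29), a replicate block and leaving out each library. Mitochondrial scaling of the unnamed feature was chosen after seeing the data. Genes called in LP against DM with 1 direction in all 5 scalings are given with every library, and the rest by function. Members, gene lists and tests were chosen with earlier results of these data known. All 29 features entered ranks, factors, fits and counts of calls, but the values of 2 nuclear genes are not reported here. No batch is recorded in the labels.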

Additional observations from a re-analysis of the deposited data

How the results depend on the processing

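Scaling decided most counts of calls. For LP against DM, the 15 calls became 8 with TMM and 7 unscaled. For LP against MP, the 3 calls became 6 with joint median-of-ratios, 7 with nuclear scaling, 5 unscaled, 6 with class geometric means, 6 with class sums and 5 in a fit of both groups alone. For LP against HP, the 12 calls became 26 with nuclear scaling and 21 unscaled. Leaving out 1 library gave 12 to 15, 2 to 4 and 11 to 12 calls in the 3 comparisons, and log2 differences of -0.504 to -0.433 in the mitochondrial to nuclear ratio. Among features called in either setting, log2 fold changes turned sign, in LP against DM, for Cyp4a2 (0.46 with joint median-of-ratios, 0.13 in the fit of both groups alone), ND4L (-0.01, nuclear), Hao2 (-0.15, class sums) and Miox (0.03 with TMM, 0.17 with joint median-of-ratios). The unnamed feature and the mitochondrial genes other than ND5 also differed in sign between scalings. With TMM, joint median-of-ratios and no scaling, Atp1b1 gave 0.10, 0.24 and 0.02, Eef1a1 0.13, 0.27 and 0.05, and Atp5f1b 0.16, 0.30 and 0.08. In LP against MP, TMM and joint median-of-ratios gave 0.07 and 0.03 for Gclc and 0.18 and 0.14 for Slc3a1. In LP against HP they gave 0.45 and 0.48 for Hao2, 0.16 and 0.18 for Glul and 0.36 and 0.40 for Miox, and COX2 was -0.45 with nuclear scaling and -0.33 unscaled. These scalings differ in the genes that set the factors; beyond that, the cause was not tested. In the fit of LP and DM alone, Atp1b1 (adjusted p = 0.133), Eef1a1 (0.28), Atp5f1b (0.621) and Miox (0.0995) did not pass in edgeR. Same-numbered LP and DM libraries deviated from their group means with r of -0.75, 0.0684 and -0.55, so the numbers were not taken to pair samples. With a replicate block the counts were 15, 3 and 12, and the ratio differed by -0.463 (exact permutation p = 0.25). DESeq2 called 13, 3 and 12 features and limma 15, 3 and 12. Depth could not be checked, because the table lists 29 features.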
